A study of Mus musculus with 2 samples.

Results

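The genes of the miR-15, miR-16, miR-195 and miR-497 microRNAs were followed in mouse heart. The 8 members were chosen by gene name (Mir15a, Mir15b, Mir16-1, Mir16-2, Mir195a, Mir195b, Mir497 and Mir497b) and make up 8 of the 2202 microRNA genes in the tables. MicroRNA libraries of RNA under 30 bases came from heart tissue of female B6CASTF1/J mice aged 14 days, an F1 hybrid cross of C57BL/6J and CAST/EiJ, with no treatment or engineered allele named. There was 1 group of 2 biological replicates, so no condition was compared and the data give the level of each gene and its spread between 2 libraries. The labels speak of 3 females for replicate 1 and of 1 for replicate 2, with no word on pooling. Another label writes the age of 14 in months, and the age field was used.

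MicroRNAs of about the same length are cut from hairpin precursors, and a mature strand pairs with messenger RNAs mainly through its seed, bases 2 to 8 from the 5′ end. Members of this family share a seed and are known to repress messenger RNAs of cell cycle and survival genes, among them Ccnd1, Chek1 and Bcl2. In the mouse heart miR-195 is known to increase after birth, when cardiomyocytes leave the cell cycle, and raising it early is known to reduce their division.

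All 8 members had a mature sequence in the RefSeq table (GRCm38.p6), and 7 of them share the seed AGCAGCA. The strands that carry it, and miR-497b, are shown 5′ to 3′ with the seed in capitals. The seed defines the family, and the bases after it decide whether a read can be traced to 1 gene.
miR-15a-5p: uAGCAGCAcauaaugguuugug
miR-15b-5p: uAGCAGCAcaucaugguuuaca
miR-16-5p: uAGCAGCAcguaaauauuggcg
miR-195a-5p: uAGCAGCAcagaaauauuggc
miR-195b: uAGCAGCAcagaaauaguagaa
miR-497a-5p: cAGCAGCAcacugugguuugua
miR-497b: cACCACAGugugguuuggacgugg
miR-497b is the exception and has the seed ACCACAG, so Mir497b belongs with the others by name and place, not by seed. Counted from the 5′ end, miR-15a-5p and miR-15b-5p are identical at 18 of 22 bases and differ by A12C, G20A, U21C and G22A. miR-16-5p and miR-195a-5p are identical at 19 of the 21 bases compared and differ by G10A and U11G. miR-195a-5p and miR-195b differ by U17G, G19A and C21A.

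Both miR-16 genes give the same miR-16-5p, and this bears on every miR-16 count that follows. The hairpins of the GENCODE M21 transcripts are shown 5′ to 3′ with the longest stretch they share in capitals.
Mir16-1: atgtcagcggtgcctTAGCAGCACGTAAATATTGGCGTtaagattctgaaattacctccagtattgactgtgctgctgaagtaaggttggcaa
Mir16-2: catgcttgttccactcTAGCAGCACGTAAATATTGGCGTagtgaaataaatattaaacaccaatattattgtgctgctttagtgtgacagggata
The shared 23 bases hold the whole of the 22-base miR-16-5p. A read equal to it matches both hairpins, and the tables assign no read that maps to several places to any gene. Such reads were 41.1% of the whole library in replicate 1 and 39.9% in replicate 2. The strands from the other arm differ and can be told apart, as these sequences show, with bases 2 to 8 in capitals.
miR-16-1-3p: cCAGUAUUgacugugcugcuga
miR-16-2-3p: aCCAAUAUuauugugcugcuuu
Compared position by position from the 5′ end without gaps, they are identical at 12 of 22 bases, and shifted bases count as different. The tables count reads per hairpin and not per strand, so which strand the counted miR-16 reads came from is not known, and the counts of Mir16-1 and Mir16-2 are uncertain. No other member shares 20 bases with a hairpin elsewhere among the annotated microRNA genes, and sequence outside these hairpins was not searched.

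The members lie at 3 loci of paired genes and a single place on another chromosome (mm10, GENCODE M21). Mir15b (chromosome 3, 69009772 to 69009835, plus strand) and Mir16-2 (69009902 to 69009996) lie 66 bases apart in an intron of Smc4, a condensin subunit gene, on its strand. Mir15a (chromosome 14, 61632027 to 61632110, minus strand) lies in an intron of the noncoding gene Dleu2 and Mir16-1 (61631880 to 61631972) overlaps an annotated exon of it, with 54 bases between them. Mir497 (chromosome 11, 70234717 to 70234800, plus strand) and Mir195a (70235042 to 70235135) are 241 bases apart, with no annotated host. Mir497b (70234692 to 70234816, minus strand) covers Mir497 on the opposite strand. Mir195b (chromosome 2, 56785811 to 56785907, plus strand) overlaps no other annotated gene.

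Replicate 1 held 12701590 reads and replicate 2 held 7126319, and 5237062 and 3026501 of them fell on a microRNA gene's own strand. Levels are own-strand counts scaled to 1000000 counted reads (CPM), intervals are exact 95% Clopper-Pearson intervals, and values with an SD are means of 2 libraries. Reads are not counts of separate molecules, so intervals and floors cover counting error only. The heart label was checked against Mir208a, Mir208b and Mir499, microRNAs of cardiomyocyte myosin genes. All 3 had at least 10 reads in both libraries, with a summed level of 5166 and 3415 CPM, against 7.83 and 20.5 CPM for the skeletal muscle microRNA gene Mir206. Bulk tissue cannot tell fewer cells of a type from less RNA per cell.

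In the young heart, 6 of the 8 members were detected, meaning at least 10 reads in both libraries, against 15.2% of all genes in the tables. Together the members took 0.843% of counted reads in replicate 1 (interval 0.835 to 0.850) and 0.620% in replicate 2 (0.611 to 0.629), a mean of 0.731% ± 0.158 (SD, n = 2). Mir15b led the family in both libraries, and Mir16-2, its partner in the Smc4 intron, was the lowest detected member in both. Mir195a, Mir497, Mir15a and Mir16-1 lay between them at similar mean levels.

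**Figure D1:**
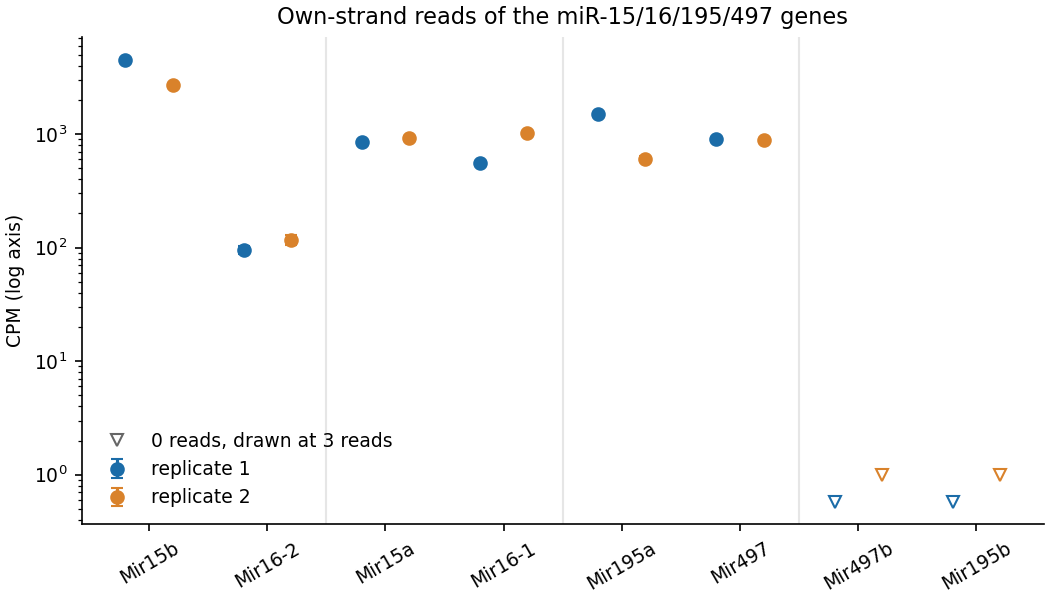
Level of each member in CPM (log axis) in replicate 1 and replicate 2, with exact 95% intervals where they exceed the point size; open triangles mark genes with 0 reads, drawn at the level of 3 reads. Vertical lines separate the loci, Mir15b lies above the other members in both libraries, and Mir497b and Mir195b had 0 reads.

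At the Smc4 locus, Mir15b had 23684 reads in replicate 1 and 8087 in replicate 2, or 4522 CPM (4465 to 4580) and 2672 CPM (2614 to 2731). In counted reads, both libraries put it above every other member, at rank 32 and rank 38 of all genes. Its mean was 3597 ± 1308 CPM. Mir16-2, cut from the same intron, had 498 and 352 reads, or 95.1 CPM (86.9 to 103.8) and 116 CPM (104 to 129), with a mean of 106 ± 15.0 CPM. Its 5′ strand is the shared miR-16-5p shown above, so its level holds for uniquely mapped reads alone.

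At the Dleu2 locus, which is frequently deleted in human chronic lymphocytic leukaemia, the 2 genes were near each other in counted reads. Mir15a had 4454 and 2772 reads, or 850 CPM (826 to 876) and 916 CPM (882 to 951), a mean of 883 ± 46.3 CPM. Mir16-1 had 2880 and 3059 reads, or 550 CPM (530 to 570) and 1011 CPM (975 to 1047), a mean of 780 ± 326 CPM. Mir16-1 was below Mir15a in replicate 1 and above it in replicate 2.

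At the third locus, Mir195a had 7892 and 1832 reads, or 1507 CPM (1474 to 1541) and 605 CPM (578 to 634), a mean of 1056 ± 638 CPM. Its neighbour Mir497 had 4719 and 2653 reads, or 901 CPM (876 to 927) and 877 CPM (844 to 911), a mean of 889 ± 17.3 CPM. Mir195a was the member with the widest relative spread and Mir497 the one with the narrowest. Mir497b and Mir195b had 0 reads in both libraries, where a floor of 3 reads is 0.573 CPM for replicate 1 and 0.991 CPM for replicate 2.

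The strand of the reads separates Mir497 from Mir497b. On the strand opposite to Mir497b the tables hold 4719 and 2653 reads, the same numbers as on the own strand of Mir497, and on the strand opposite to Mir497 they hold 0. With a floor of 3 reads per library, Mir497 was at least 1573-fold higher than Mir497b in replicate 1 and at least 884-fold higher in replicate 2. Without strand these reads were ambiguous between the 2 genes and counted for neither, so that Mir497 itself stood at 0 in the unstranded column. The other 5 detected members had the same counts with and without strand, and 0 reads on their opposite strand.

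By mean level of counted reads the order was Mir15b, Mir195a, Mir497, Mir15a, Mir16-1 and Mir16-2. It was the same per length, with 5621, 1124, 1058, 1051, 839 and 111 CPM per 100 bases of hairpin. The places of the 2 miR-16 genes hold for uniquely mapped reads alone. The CPM of Mir15b did not overlap with that of Mir195a, and the lower of the Mir16-1 libraries (550 CPM) lay above the higher of the Mir16-2 libraries (116 CPM). Mir195a and Mir497, Mir497 and Mir15a, and Mir15a and Mir16-1 overlapped between libraries, so the order of these 4 genes is not separated from the spread. In the order of all genes by mean CPM, the members stood at ranks 35, 66, 76, 77, 82 and 155.

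**Figure D2:**
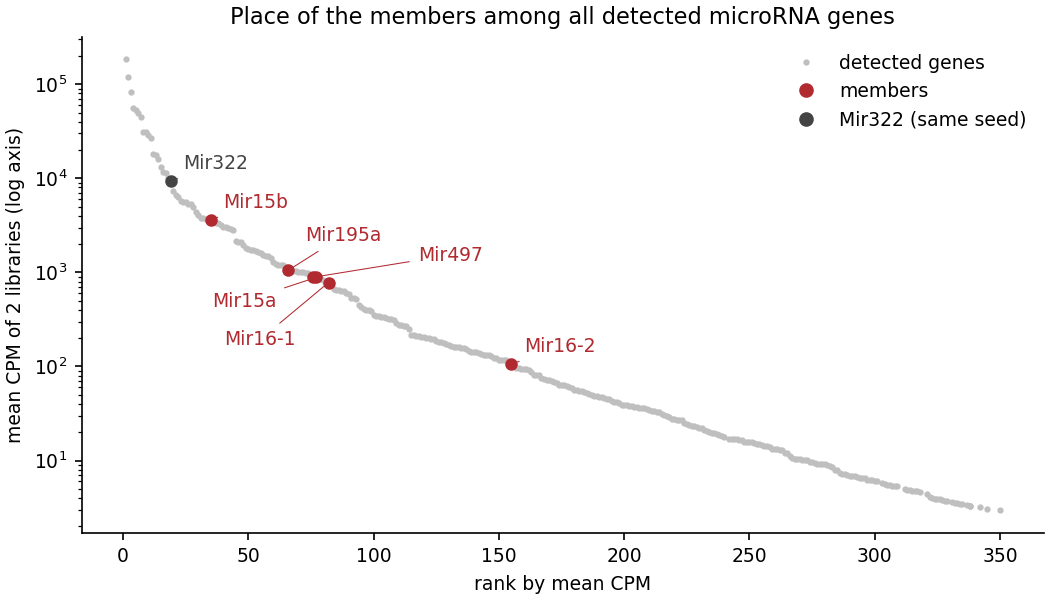
Mean CPM of 2 libraries (log axis) against rank for every detected microRNA gene (grey), with the 6 detected members in red and Mir322, which has the same seed, in dark grey. Mir15b stands at rank 35, 4 members lie between ranks 66 and 82, and Mir16-2 at rank 155.

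The genes nearest to the members in mean level came from other families. Mir15b stood between Mir30e (3646 ± 439 CPM) and Mir107 (3523 ± 1739 CPM), and Mir195a between Mirlet7c-2 (1151 ± 19.4 CPM) and Mir145a (1043 ± 235 CPM). Mir497 and Mir15a, which are next to each other, lay between Mir185 (947 ± 1125 CPM) and Mir29a (852 ± 181 CPM). Mir16-1 had Mir467d (793 ± 121 CPM) above and Mir181c (758 ± 53.5 CPM) below it, and Mir16-2 had Mir24-2 (109 ± 51.0 CPM) and Mir708 (103 ± 8.04 CPM). Of these neighbours, Mir107, Mirlet7c-2, Mir467d, Mir24-2 and Mir708 have 20 bases in common with another hairpin, which makes their counts uncertain. None of the 12 steps between a member and its neighbour exceeded the larger of the 2 SDs, and with 2 libraries no likeness of pattern across samples can be measured.

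Other genes with the seed AGCAGCA were searched in the same RefSeq table, which gave Mir322, Mir6342, Mir6353 and Mir6419. Mir322, an X-linked gene whose 5′ strand is printed here for its shared seed, had 39385 and 33317 reads, or 7520 and 11008 CPM.
miR-322-5p: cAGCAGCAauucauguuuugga
The other 3 had 0 reads in both libraries. All genes with this seed together took 1.59% of counted reads in replicate 1 and 1.72% in replicate 2. Of those reads the members held 52.8% (52.5 to 53.2) in replicate 1 and 36.0% (35.6 to 36.4) in replicate 2, and Mir322 held the rest. The summed share thus differed less between libraries than its division between Mir322 and the members, and reads of miR-16-5p itself are missing from both sums to an unknown degree. Reads are counted per hairpin, so an unknown part of both sums may come from the other strands, which lack the seed.

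Within the family, the makeup of the reads differed between the libraries. The Smc4 locus held 54.8% (54.3 to 55.3) of the members' reads in replicate 1 and 45.0% (44.3 to 45.7) in replicate 2. The Dleu2 locus held 16.6% (16.3 to 17.0) and 31.1% (30.4 to 31.8), and the locus of Mir497 and Mir195a held 28.6% (28.2 to 29.0) and 23.9% (23.3 to 24.5). The largest single shifts were in Mir15b, from 53.7% in replicate 1 to 43.1% in replicate 2, and in Mir16-1, from 6.53% to 16.3%. Among the 4 detected members that share no 20 bases with another hairpin, Mir15b held 58.1% and 52.7%, Mir195a 19.4% and 11.9%, Mir497 11.6% and 17.3%, and Mir15a 10.9% and 18.1%.

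**Figure D3:**
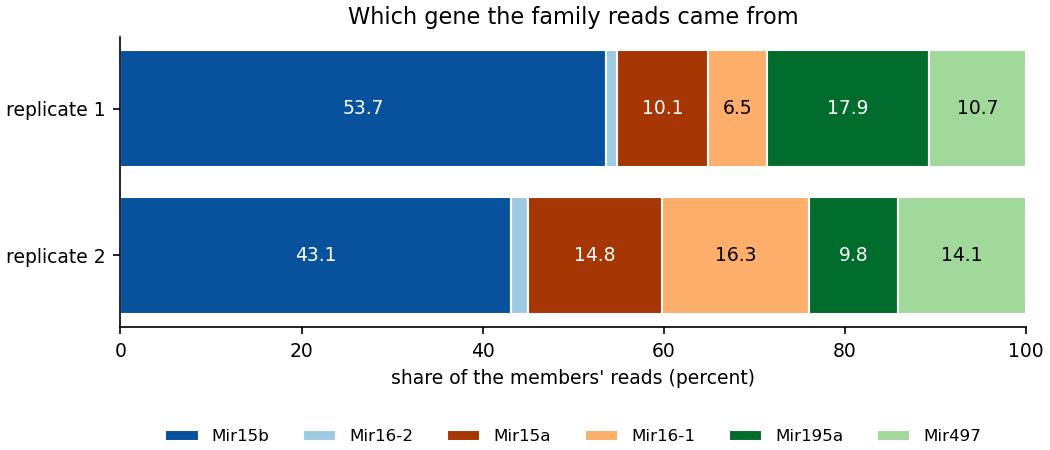
Share of the members' reads (percent) that came from each detected gene in replicate 1 (44127 reads) and replicate 2 (18755 reads), with the genes of 1 locus in shades of 1 colour. Mir15b takes the largest share in both, and Mir16-1 takes 6.53% in replicate 1 and 16.3% in replicate 2.

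Between the libraries, Mir195a and Mir15b were higher in replicate 1 and Mir16-1 was lower. Differences are given after TMM scaling, with an exact two-sided binomial test and Benjamini-Hochberg adjustment over the 430 genes whose counts summed to at least 10. The test rests on counting error, compares these 2 libraries and not conditions, and called 55.3% of all genes tested. All 6 detected members were called, with 2 higher and 4 lower against 27.9% and 27.4% of all genes. Those shares include genes with few reads, which the test calls less readily. In the order of mean CPM, every gene above Mir382 at rank 80 was called, so 6 of 6 is not read as an excess. The median log2 difference of the 6 was -0.17, beside -0.05 over all genes tested.

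Mir195a was higher in replicate 1 by 2.27-fold (log2 1.18, counting interval 1.11 to 1.26, adjusted p = 3.39e-254 by the binomial test). Mir15b was higher by 1.54-fold (log2 0.62, 0.59 to 0.66). Mir16-1 was lower by 2.02-fold (log2 -1.01, -1.09 to -0.94), Mir16-2 by 1.34-fold (log2 -0.43, -0.62 to -0.22) and Mir15a by 1.18-fold (log2 -0.24, -0.31 to -0.17). Mir497 was lower by 1.07-fold (log2 -0.09, -0.16 to -0.03, adjusted p = 0.0150 by the binomial test), and with total counts in place of TMM, which shifts every gene by 0.13, its difference turned to 0.040.

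Set against all genes with many reads, the members' differences were not unusual in size. The 226 genes that averaged at least 100 reads, members included, had a median difference of 1.32-fold between libraries, and 18.1% differed by more than 2-fold. Smaller differences than that of Mir195a were seen in 84.5% of these genes, than that of Mir16-1 in 82.3%, of Mir15b in 67.7% and of Mir16-2 in 51.3%. For Mir15a the share was 27.0% and for Mir497 it was 9.29%. When a biological coefficient of variation of 0.1 was allowed for in edgeR's exact test, which called 28.6% of all genes, 3 members kept their call (Mir195a, Mir15b and Mir16-1).

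**Figure D4:**
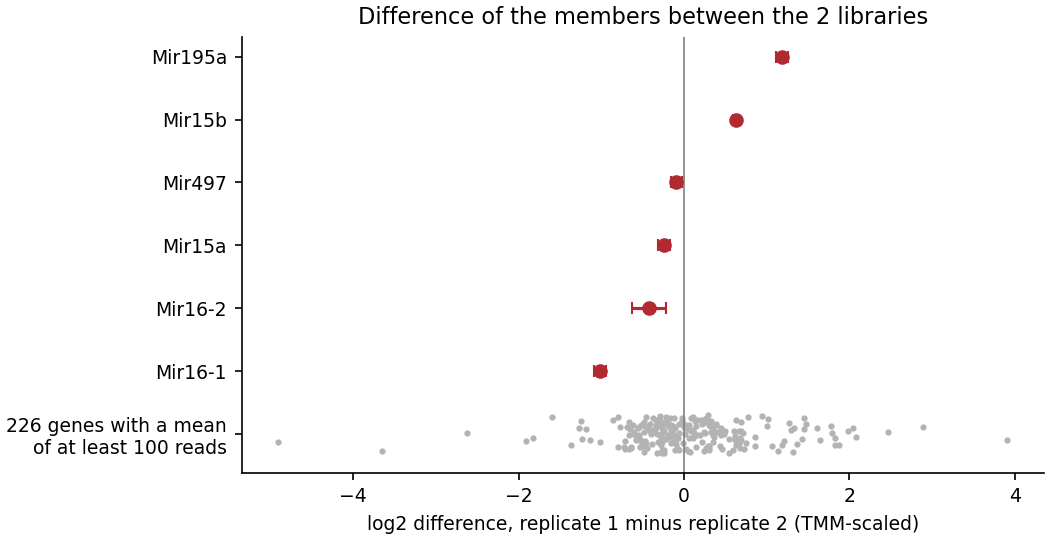
Log2 difference of each detected member, replicate 1 minus replicate 2 after TMM scaling, with counting intervals, above the 226 genes averaging at least 100 reads (grey, members included, spread vertically at random). Mir195a and Mir15b lie to the right and Mir16-1 to the left of 0, all within the range of the other genes, and Mir497 lies next to 0 and changes sign with total counts.

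Genes of 1 locus did not keep a constant ratio of counted reads. Mir195a had 1.67 times the reads of Mir497 in replicate 1 (log2 ratio 0.74, interval 0.69 to 0.79) and 0.691 times in replicate 2 (log2 -0.53, -0.62 to -0.45). Mir15a had 1.55 times the reads of Mir16-1 in replicate 1 (log2 0.63, 0.56 to 0.70) and 0.906 times in replicate 2 (log2 -0.14, -0.22 to -0.07). In both pairs the gene with more reads was a different one in each library, and the intervals did not overlap. Mir15b had 47.5 times the reads of Mir16-2 in replicate 1 (log2 5.57, 5.44 to 5.70) and 22.9 times in replicate 2 (log2 4.52, 4.37 to 4.68). These ratios need no scaling between libraries. The ratios with Mir16-1 or Mir16-2 leave out reads equal to miR-16-5p, so their size and their change are uncertain beyond the counting intervals.

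Changes of that size were also seen at other loci. Over 65 other pairs of neighbouring microRNA genes on 1 strand, within 10000 bases and with a mean of at least 100 reads each, the log2 ratio changed between libraries by a median of 0.57 (quartiles 0.36 and 0.99), and its sign turned in 5. The change was 1.28 for Mir195a and Mir497, 1.05 for Mir15b and Mir16-2 and 0.77 for Mir15a and Mir16-1, and 12, 15 and 24 of the 65 other pairs changed by more. Some of these pairs share a gene, and the comparison was added after the ratios were seen.

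**Figure D5:**
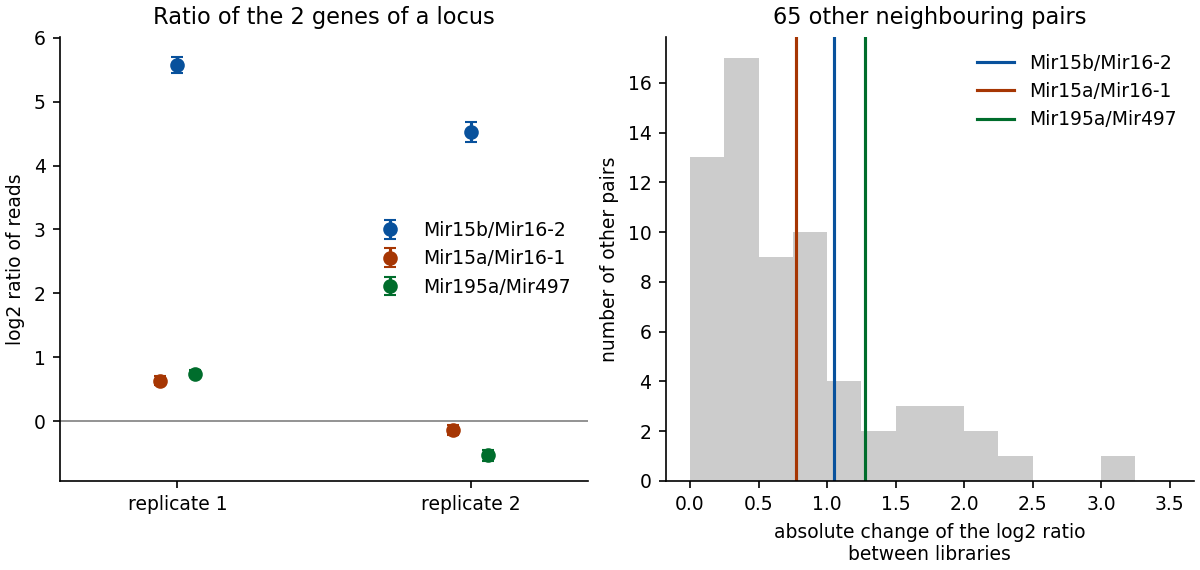
Left, log2 ratio of the reads of the 2 genes of each locus in replicate 1 and replicate 2, with exact 95% intervals; right, absolute change of the log2 ratio between libraries for 65 other neighbouring pairs (grey bars), with the members' pairs as vertical lines. The ratios of Mir195a to Mir497 and of Mir15a to Mir16-1 lie above 0 in replicate 1 and below 0 in replicate 2.

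The paralogous genes at different loci were also unequal in counted reads. Mir15b had 5.32 times the reads of Mir15a in replicate 1 (log2 2.41, 2.36 to 2.46) and 2.92 times in replicate 2 (log2 1.54, 1.48 to 1.61). Mir16-1 had 5.78 times the reads of Mir16-2 in replicate 1 (log2 2.53, 2.39 to 2.67) and 8.68 times in replicate 2 (log2 3.12, 2.96 to 3.28). The Smc4 locus thus gave more counted reads than the Dleu2 locus for miR-15 in both libraries. For miR-16 it gave fewer, but only among reads that map to 1 place, which leave out reads equal to miR-16-5p. Which locus gave more miR-16-5p is therefore not known.

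Markers of other cell types also differed between the libraries. The erythroid genes Mir451a and Mir144 had a summed level of 337 and 6972 CPM, and both were lower in replicate 1. Mir486, an erythroid gene outside this list, went the other way, at 658 and 410 CPM (log2 0.55). The 3 leukocyte genes (Mir142, Mir223 and Mir150) summed to 898 and 523 CPM, and all of them were higher in replicate 1. Mir155, a leukocyte gene outside this list, was lower in replicate 1 (log2 -0.85). At 1591 and 2619 CPM it stood above the sum of the 3. The 4 epithelial genes (Mir200a, Mir200b, Mir200c and Mir429) summed to 525 and 323 CPM and were all higher in replicate 1. Mir200a, with 38 and 5 reads, was below the limit for detection. Of the cardiomyocyte genes, Mir208a and Mir499 were higher in replicate 1 and Mir208b was not called. The endothelial Mir126a stood at 42911 and 63991 CPM, the smooth muscle Mir143 at 29124 and 33002 CPM, and the liver gene Mir122 stood at 55.9 and 70.4 CPM. Mir143 was lower in replicate 1 (log2 -0.31) and its neighbour Mir145a, at 1209 and 877 CPM, was higher (log2 0.33). The calls of these markers stand beside 55.3% of all genes tested that were called, 27.9% higher and 27.4% lower. No gene of these lists was at 0, and their part in the members' differences was not tested.

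Other microRNAs known to act on heart cell division were described from a list of genes that restrain it and a list of genes that promote it. Of the 9 restraining genes, 7 were detected; 1 of 8 tested was higher in replicate 1, 4 were lower and 3 were not called, with a median log2 difference of -0.53. The 5 calls of 8 stand beside 55.3% of all genes called, 27.9% higher and 27.4% lower, and the median beside -0.05 over all genes tested. This median includes genes with few reads, namely Mir1a-1 (4 and 6 reads), Mir133a-1 (16 and 12) and Mir29b-2 (15 and 24). Mir34a, a gene induced by p53, was the highest at 3770 ± 738 CPM and close to Mir15b, and was lower in replicate 1 by 1.45-fold. Mir29a followed at 852 ± 181 CPM and was higher by 1.23-fold, while Mir1a-2, a copy of the muscle microRNA miR-1, had 110 and 101 reads. Of 15 promoting genes, 14 were matched by name and 8 were detected; 1 of 8 tested was higher, 3 were lower and 4 were not called, with a median log2 difference of -0.69, beside the same shares and median of all genes. The median of the promoting genes includes Mir199a-2 (21 and 20 reads), Mir302a (12 and 11) and Mir302d (15 and 21), all with few reads and each below it. Mir17, Mir92-1 and Mir20a, neighbours in a cluster known to drive proliferation, led this list at 2791 ± 711, 1231 ± 251 and 1039 ± 298 CPM. A stretch of 20 bases is shared with another hairpin by 7 of the 9 restraining genes (all but Mir29a and Mir34a) and by 6 of the 14 promoting genes, among them Mir92-1, so the counts of these genes are uncertain.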

How the data were processed

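Per the deposited readme, the authors made the counts on mm10 with annotation M21 (GENCODE). Which trimmer, aligner and counter they ran is not given in the sources used here. Deposited values are whole-number read counts per gene, not normalized, in 3 unnamed columns whose values show that they hold both strands, the own strand and the opposite strand. The own-strand counts were used. The first 4 lines name no gene, held 58.8% and 57.5% of all reads, and were left out of all totals and tests.

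The floor for a count of 0 was 3 reads, and 0.5 reads were added to each count for log2 values. TMM and the exact test came from edgeR 4.0.16 and size factors from DESeq2 1.42.0 under R 4.3.3; the rest used scipy 1.17.1, matplotlib 3.10.9, numpy 2.4.6 and pandas 2.3.3 in Python 3.11.15. Calls were made at an adjusted p of 0.05, and the binomial test was tested on simulated data that held no error beyond counting. The 2 replicates form 1 group, and p-values rest on counting error or on the fixed coefficient of variation, not on a measured spread. Named were all members, genes with their seed, the nearest gene on each side in level, and examples from the lists. Members and lists were chosen with earlier results of these data known. Alternatives were unstranded reads, other minimums, denominators, scalings and pseudocounts, length, each library alone, a fold of 1.5 and a fixed coefficient of variation.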

Additional observations from a re-analysis of the deposited data

How the results depend on the processing

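The members' share was 0.731% of counted reads and 0.305% of all reads, and with each library alone it lay between 0.620% and 0.843%. The binomial test called 2 members higher and 4 lower in replicate 1. With edgeR's exact test at a coefficient of variation of 0.1, 2 were higher and 1 lower, and the same numbers were reached by the binomial test with a fold of at least 1.5, which 32.1% of all genes passed. Over all genes, 120 were called higher and 118 lower; edgeR's exact test called 67 and 56, and the fold of at least 1.5 left 81 higher and 57 lower. Mir497 was the only member whose difference turned, to a log2 difference of 0.040 with total counts and 0.035 with no read minimum, and it lost its call with DESeq2 size factors (log2 -0.057). Mir497 could not be measured without strand. The mean log2 ratio of Mir195a to Mir497 was 0.10, ranged from -0.53 to 0.74 with each library alone and was -0.058 per base of hairpin; that of Mir15a to Mir16-1 was 0.24 and ranged from -0.14 to 0.63. The other 3 ratios kept their sign under each alternative run. Depth leaves Mir195b and Mir497b at 0 reads with only the floor as a limit, and the loss of reads that map to several places limits both miR-16 genes by an amount these tables do not show. No paired analysis was possible because there is 1 group.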
